A study of Mus musculus with 8 samples.

Results

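Fetal growth and let-7 target genes were followed through late development of mouse dorsal skin. The group comprised 10 genes, of which Hmga2, Lin28b, Igf2bp1, Igf2bp2 and Igf2bp3 are known targets of the let-7 microRNAs, and Igf2, H19, Dlk1, Peg3 and Plagl1 are imprinted growth genes. Members were all array probesets annotated to exactly 1 of these symbols, which gave 27 probesets of 34945 with a single gene symbol. They covered 8 of the 10 genes. Igf2bp2 had no probeset under this rule and the only H19 probeset also carried a second symbol, so neither gene was analysed here. There were 4 probesets for Hmga2, 1 for Lin28b, 4 for Igf2bp1, 6 for Igf2bp3, 2 for Igf2, 2 for Dlk1, 5 for Peg3 and 3 for Plagl1.

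All embryos were wild-type and untreated as far as the labels state, and whole dorsal skin was taken at embryonic day 14.5 (E14.5, 2 arrays), 16.5 (E16.5, 3 arrays) and 18.5 (E18.5, 3 arrays). The stated aim was to see which programs of transcription accompany epidermal differentiation. The labels name no litter or animal, so the p-values measure only the spread between these samples, which may be technical. In whole skin, fewer cells of a type and less RNA per cell cannot be told apart.

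Hmga2 encodes a chromatin protein that binds AT-rich DNA and promotes growth of embryonic cells, and it is shut down in most adult tissues. The let-7 microRNAs accumulate as development proceeds and repress Hmga2, the Igf2bp genes and Lin28b, while the Lin28 proteins block let-7 maturation. The Igf2bp proteins bind messenger RNAs, among them that of Igf2, the main fetal insulin-like growth factor. Dlk1 encodes a membrane protein that restrains adipocyte formation, and Peg3 and Plagl1 encode zinc finger proteins. Igf2, Dlk1, Peg3 and Plagl1 are expressed from the paternal allele and H19 from the maternal one, and Plagl1 is known to regulate several other imprinted genes.

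The let-7 family is shown because its seed, bases 2 to 8 of the mature strand, is what these targets are named for. RefSeq (GRCm38.p6) listed 11 mature family members from the 5′ arm, of which 10 shared the seed GAGGUAG. In the sequences, written 5′ to 3′, capitals mark the seed. Mouse let-7a-5p comes from chr13:48538239-48538260 (minus strand), let-7d-5p from chr13:48536078-48536099 (minus strand) and miR-98-5p from chrX:151913229-151913250 (plus strand). They differ outside the seed, let-7d already at base 1. The listed let-7j from chr3:140028281-140028304 (plus strand) has another last seed base.
let-7a-5p: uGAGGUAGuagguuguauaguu
let-7d-5p: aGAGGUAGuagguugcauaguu
miR-98-5p: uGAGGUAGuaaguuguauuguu
let-7j: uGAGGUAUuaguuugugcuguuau
The microRNAs themselves were not analysed here.

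The promoter of Hmga2 is shown because this gene had the most probesets that changed in the best-matched comparison. The window runs from 250 bases before to 50 after the start (RefSeq, GRCm38.p6, chr10:120476420-120476719, minus strand). Capitals mark TCTCTCTC, a pyrimidine repeat chosen after the sequence was seen and searched on both strands with overlaps joined.
Hmga2 promoter: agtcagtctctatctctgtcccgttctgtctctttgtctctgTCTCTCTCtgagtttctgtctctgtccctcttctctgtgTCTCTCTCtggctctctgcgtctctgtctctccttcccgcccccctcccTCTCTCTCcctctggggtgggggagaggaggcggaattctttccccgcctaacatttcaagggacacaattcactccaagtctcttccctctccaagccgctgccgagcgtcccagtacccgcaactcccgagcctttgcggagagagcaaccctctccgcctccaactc
The repeat occurred in 3 separate stretches, and 3.93% of 32851 promoter windows of this length hold it at least once. Of the 8 members with a window in the table, Hmga2 and Lin28b held it. C and T made up 69.0% of the printed strand, and 0.408% of windows were as rich in them.

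Signals are the deposited linear probeset intensities. A probeset was taken as above background on an array when it exceeded the 95th percentile of 80 probesets for olfactory and vomeronasal receptors, which lay between 33.6 and 92.2. Of the 27 member probesets, 20 were above background on all 8 arrays. Differences are given on the log2(signal + 16) scale, which understates those of low signals, with the standard error (SE) from limma. The call rule was a p under 0.05 after Benjamini-Hochberg adjustment over all 34945. The E14.5 arrays stood apart from the others. Their beta-actin controls had a 3′ over 5′ ratio of 6.49 and 6.91, and the others 1.11 to 1.37. Median signals over the probesets were 63.4 and 60.8 on them and 120.1 to 152.6 elsewhere. In comparisons with E14.5, what comes from the stage and what from the preparation of the arrays cannot be told apart. Between E16.5 and E18.5 the beta-actin ratio also differed without overlap, at 1.11 to 1.14 and 1.35 to 1.37, and so did the background, at 33.6 to 53.2 and 62.2 to 92.2. Their part in the results was not tested.

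**Figure D1:**
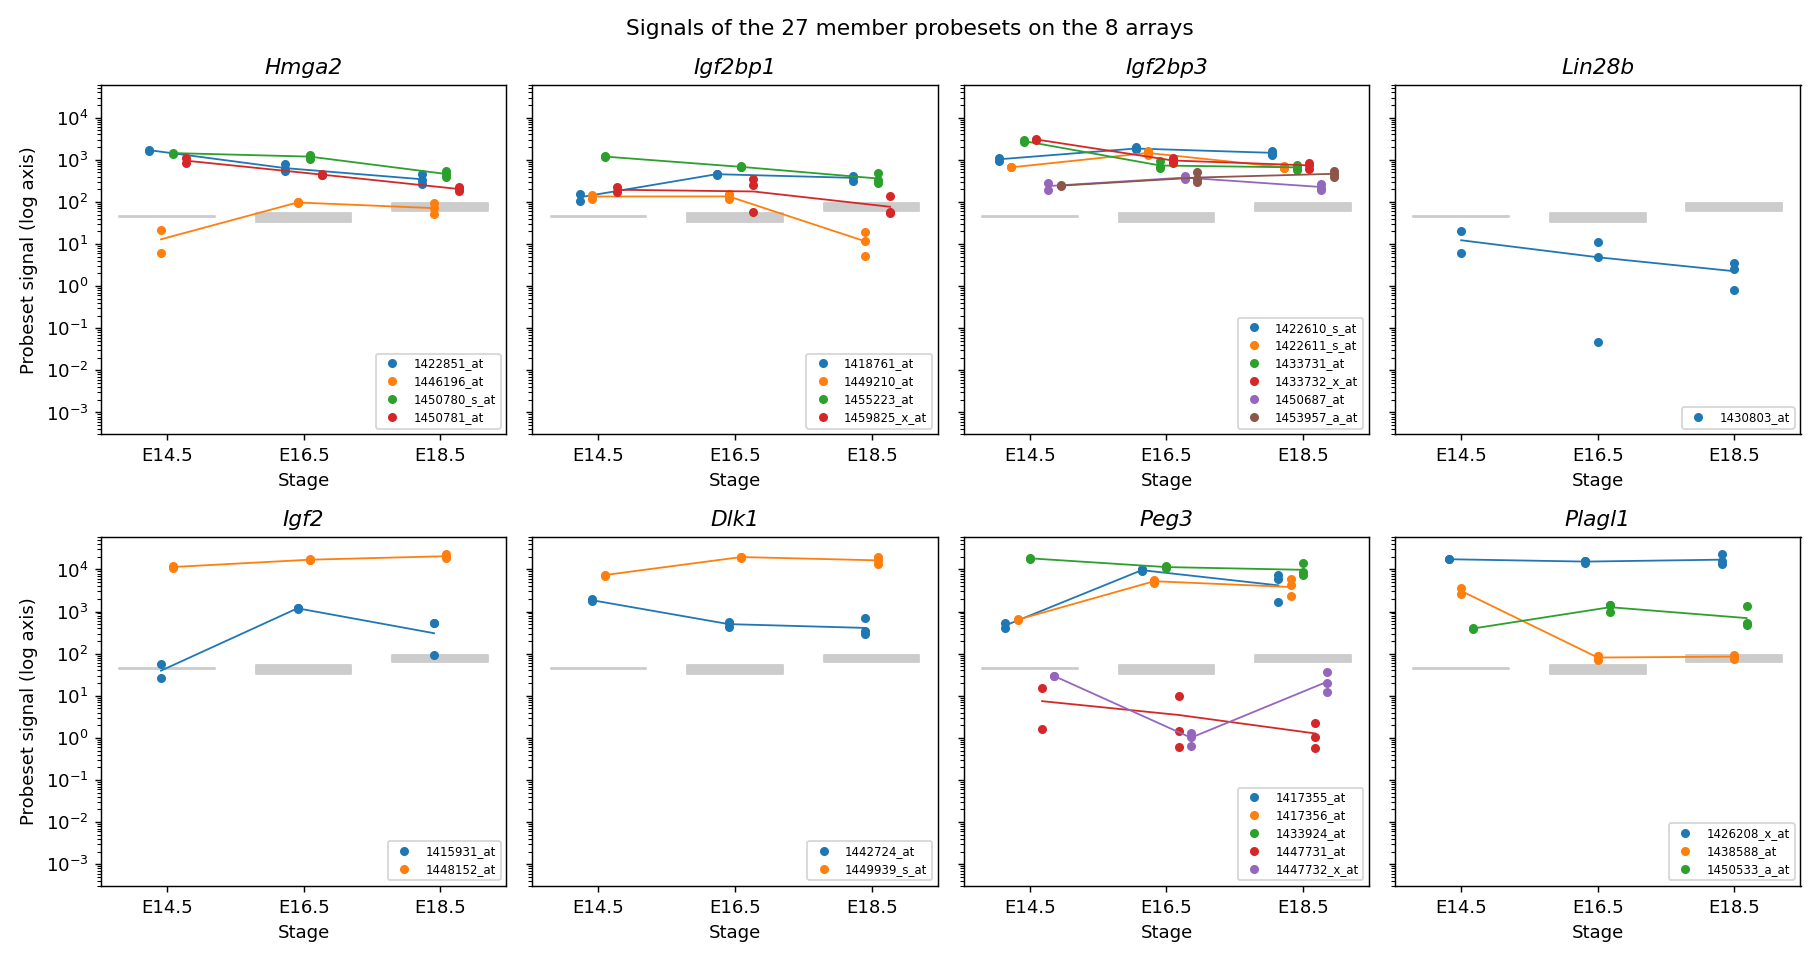
Probeset signal (log axis) of each member on each array by stage, 1 panel a gene and 1 colour a probeset; points are arrays, lines join stage means taken on the log2(signal + 16) scale, and grey bars span the background of the arrays of a stage. Lin28b lies below background on all 8 arrays, 3 Hmga2 probesets are lowest at E18.5, and probesets of Dlk1, Peg3 and Plagl1 take opposite courses after E14.5.

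Between E16.5 and E18.5, Hmga2 and Igf2bp1 were lower when the probesets of each gene were averaged. The Igf2bp1 mean rests in part on E18.5 signals at background. The mean of Igf2bp3 was not called and Lin28b was at background. Of the 15 probesets of let-7 target genes 6 were lower, 0 were higher and 9 were not called, with a median log2 difference of −0.71 against 0.12 for all probesets. Those 6 were 3 of Hmga2, 2 of Igf2bp1 and 1 of Igf2bp3. Among the 12 probesets of imprinted growth genes, 1 of Igf2 was lower, 1 of Peg3 was higher at background level, and 10 were not called (median −0.24). Of all probesets tested 10.7% were called in this comparison, 4.44% lower and 6.27% higher, so 7 of 27 members called lower is above that background, and 1 of 27 called higher is not. The group was put together with results of these data known, so its direction is not independent evidence.

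Hmga2 gave the most uniform fall. Its probeset 1450780_s_at had signals of 1228, 1068 and 1289 at E16.5 and of 457, 387 and 549 at E18.5. All E18.5 arrays lay well below every E16.5 array, a 2.54-fold difference (log2 −1.34 ± 0.15 SE, n = 3 each, limma adjusted p = 0.000889). Probeset 1450781_at went from 430, 444 and 461 to 183, 206 and 221, again without overlap. This was 2.11-fold lower (log2 −1.07 ± 0.17, limma adjusted p = 0.00375). Probeset 1422851_at went from 535, 615 and 778 to 338, 267 and 455. Its arrays did not overlap either, and it was 1.80-fold lower (log2 −0.85 ± 0.21, limma adjusted p = 0.0275), but 4 of the 6 arrays decided this call. It was lost when replicate 2 or 3 of E16.5, or replicate 1 or 2 of E18.5, was left out (adjusted p = 0.0627 to 0.130), and without a variance trend (adjusted p = 0.0661). The calls of 1450780_s_at and 1450781_at held in every alternative in which they were tested. The remaining probeset, 1446196_at, was near background, with E16.5 signals of 93.0 to 99.7 and E18.5 signals of 52.8 to 92.1, where 2 of 3 arrays were at background (log2 −0.37 ± 0.31, limma adjusted p = 0.473). Averaged over its 4 probesets, Hmga2 was lower by 0.91 ± 0.16 on the log2 scale (limma adjusted p = 0.00949).

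Igf2bp1, which encodes an RNA-binding protein of fetal tissues that stabilises bound transcripts, had 2 called falls. Probeset 1455223_at went from 686, 658 and 695 at E16.5 to 340, 286 and 478 at E18.5. The stages did not overlap, and the difference was 1.85-fold (log2 −0.89 ± 0.18 SE, n = 3 each, limma adjusted p = 0.0139). It was not called without any 1 of the E16.5 arrays (adjusted p = 0.0531 to 0.0675). Probeset 1449210_at went from 135, 118 and 154 to 19.1, 5.33 and 11.9. All E18.5 arrays were at background, so the difference was at least 1.61-fold (log2 of the measured signals −2.45 ± 0.29, limma adjusted p = 0.00106). Probeset 1418761_at, whose E16.5 signals were 444 to 470 and E18.5 signals 318 to 414, was not called (log2 −0.28 ± 0.20, limma adjusted p = 0.392). Probeset 1459825_x_at scattered from 56.6 to 356 within E16.5 alone and was not called (limma adjusted p = 0.242), though it was without E16.5 replicate 1, the array at 56.6 (log2 −1.76, adjusted p = 0.0382). The mean of the 4 probesets was lower by 1.17 ± 0.18 on the log2 scale (limma adjusted p = 0.00669). It takes in background signals, on 3 of 3 E18.5 arrays for 1449210_at and on 2 of 3 for 1459825_x_at. The size of this mean fall is therefore uncertain.

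For Igf2bp3, a paralogue of Igf2bp1 that also binds Igf2 mRNA, 1 of 6 probesets was called. Probeset 1422611_s_at read 1589, 1273 and 1530 at E16.5 and 719, 627 and 646 at E18.5. It was 2.17-fold lower without overlap (log2 −1.12 ± 0.14 SE, n = 3 each, limma adjusted p = 0.00119), and the call held in every alternative in which it was tested. Probeset 1450687_at, from 357 to 410 down to 194 to 272, missed the threshold (log2 −0.71 ± 0.21, limma adjusted p = 0.0572) and was called in 7 of its 16 alternatives. The other 4 ranged from −0.38 to 0.28 on the log2 scale (limma adjusted p = 0.115 to 0.636), of which 1422610_s_at and 1433732_x_at were called lower under median centring (−0.51 and −0.55). Probeset 1453957_a_at was the only one of the 6 with a higher E18.5 mean, 470 ± 81.7 against 389 ± 112 (SD, n = 3 each), and its stages overlapped. Averaged over the 6, Igf2bp3 gave −0.40 ± 0.11 (limma adjusted p = 0.0576). Names ending in _s_at mark probes shared by several transcripts, so signals of related transcripts were not separated there.

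Lin28b, whose protein blocks let-7 maturation, was not above background on any array. Its single probeset read 20.1 and 6.15 on the E14.5 arrays, between 0.0463 and 10.9 on those of E16.5, and between 0.813 and 3.48 on those of E18.5. With both stages at background no fold is given, and limma made no call (adjusted p = 0.719). This says only that the probeset detected no Lin28b in whole skin at this sensitivity.

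**Figure D2:**
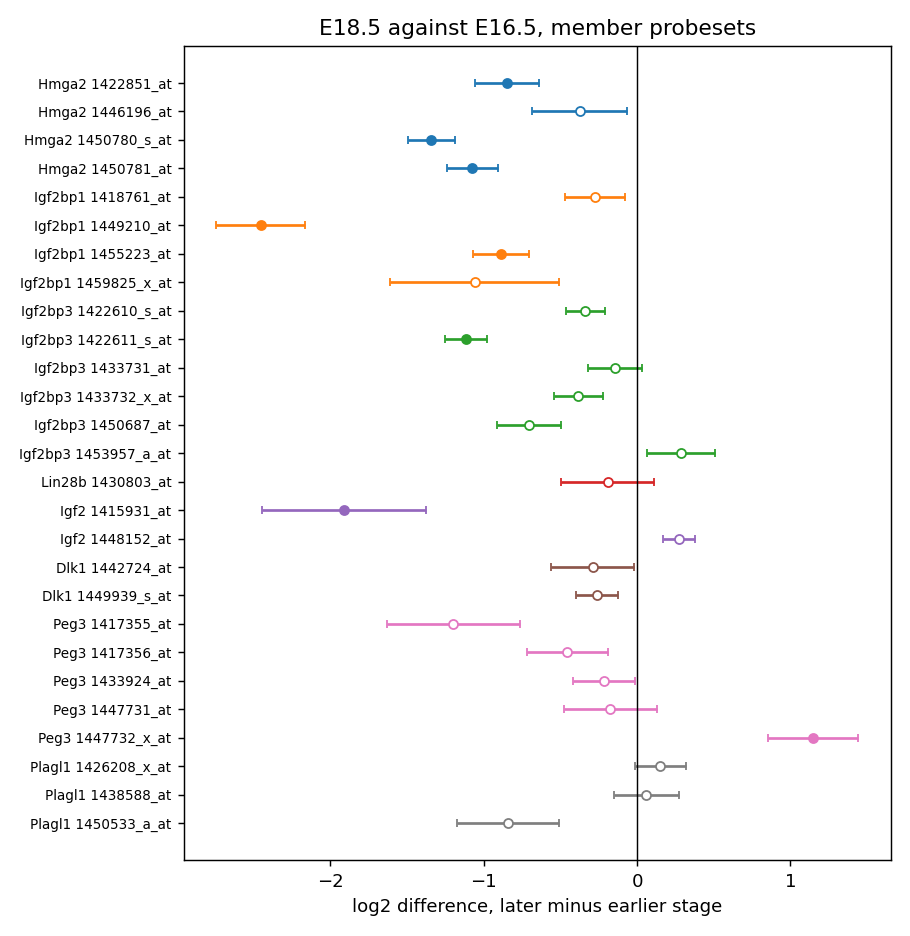
Log2 difference, E18.5 minus E16.5, of each of the 27 member probesets on the log2(signal + 16) scale (points) with its SE (bars); filled points were called by limma and colours mark genes. All 3 filled Hmga2 points, both of Igf2bp1, 1 of Igf2bp3 and 1 of Igf2 lie left of 0, and the filled Peg3 point at 1.15 belongs to a probeset at background on all arrays of both stages.

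Igf2, the fetal growth factor, gave different answers from its 2 probesets. Probeset 1448152_at read 16722, 17050 and 17386 at E16.5 and 19902, 19200 and 23026 at E18.5. The E18.5 arrays were all higher, but the difference of 1.21-fold was not called (log2 0.28 ± 0.10 SE, n = 3 each, limma adjusted p = 0.117), and its sign turned under quantile normalization (−0.09). This signal lay above at least 98.5% of all probesets on every array. Probeset 1415931_at read 1157, 1247 and 1185 at E16.5 and 91.9, 534 and 548 at E18.5. It was called lower (log2 of the measured signals −1.91 ± 0.53, limma adjusted p = 0.0462), with E18.5 replicate 1 at background and far below the other E18.5 arrays. In 9 of its 16 alternatives it was no longer called, including with any E16.5 array left out, and without E18.5 replicate 1 the difference was −1.12. Averaged over both probesets Igf2 was not called (−0.82 ± 0.29, limma adjusted p = 0.101).

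Dlk1, the adipogenesis inhibitor, was not called by either probeset between E16.5 and E18.5. Probeset 1449939_s_at gave 20273, 19163 and 19712 at E16.5 and 16548, 13338 and 20164 at E18.5. Replicate 3 of E18.5 lay among the E16.5 arrays and the others below them (log2 −0.26 ± 0.14 SE, n = 3 each, limma adjusted p = 0.249). Probeset 1442724_at gave 433 to 558 at E16.5 and 346, 286 and 687 at E18.5, with the same array on top (log2 −0.29 ± 0.27, limma adjusted p = 0.530). Without E18.5 replicate 3 both were called lower (log2 −0.41 and −0.65, limma adjusted p = 0.0456 and 0.0365), and 1449939_s_at was called under quantile normalization too (−0.59, adjusted p = 0.0168).

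Peg3, the zinc finger gene, had no called probeset above background. Probeset 1417355_at gave 10028, 8952 and 9944 at E16.5 and 1668, 5832 and 7528 at E18.5, without overlap but with a wide spread at E18.5 (log2 −1.20 ± 0.43 SE, n = 3 each, limma adjusted p = 0.104). Probeset 1417356_at gave 4714 to 5714 and then 2291, 4228 and 5797 (limma adjusted p = 0.301). Probeset 1433924_at gave 11117 to 11812 and then 7498, 8609 and 14621 (limma adjusted p = 0.531). On all 3, E18.5 replicate 1 was lowest and replicate 3 highest. Without replicate 3, 1417355_at and 1433924_at were called lower (log2 −1.62 and −0.50, limma adjusted p = 0.0355 and 0.0143), the former under median centring as well (−1.37). The other pair, 1447731_at and 1447732_x_at, stayed at background on all 8 arrays. The call of 1447732_x_at (E16.5 signals of 0.646 to 1.34, E18.5 signals of 12.3 to 36.0) therefore rests on signals that were not above background.

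Plagl1, a zinc finger regulator of imprinted genes that restrains cell division, was not called either. Probeset 1450533_a_at gave 1451, 1406 and 1000 at E16.5 and 473, 535 and 1349 at E18.5 (log2 −0.84 ± 0.33 SE, n = 3 each, limma adjusted p = 0.131), and was called without E18.5 replicate 3 (log2 −1.31, limma adjusted p = 0.00371) and under median centring (−1.01). Probeset 1426208_x_at gave 14465 to 16097 and then 13532, 15988 and 23032, above at least 99.2% of probesets on every array (limma adjusted p = 0.594). Probeset 1438588_at gave 70.3 to 87.7 and 73.9 to 93.8 (limma adjusted p = 0.884).

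Replicate 3 of E18.5 had the highest signal of its stage for 12 of the 20 member probesets above background on every E18.5 array (60.0%), against 32.7% of 21080 such probesets in all. Without it 13 member probesets were called between E16.5 and E18.5, and 4 without E16.5 replicate 2 or 3, against 8 with all arrays. Calls over all probesets also fell without E16.5 replicate 2 or 3, from 3742 to 1563 and 1208. The lower member counts there are therefore not particular to the members. Over all probesets, leaving out any 1 array gave at most 4120 calls. Marker lists moved beside the member signals. The summed signal of 16 skeletal muscle genes, all measured, was 139951, 106865 and 166126 on E18.5 replicates 1 to 3 and 100631 to 110208 at E16.5. That of 13 dermal fibroblast genes was 155270, 168961 and 187226, against 142240 to 147499. Both sums were highest on replicate 3. So were those of the endothelial, erythroid, other imprinted, other let-7 target, microRNA processing and insulin-like growth factor pathway genes. The sums of keratinocyte, adipocyte, proliferation, cartilage and bone, and Schwann and nerve genes were not. Of all genes with 1 probeset each, 6.69% were called higher and 5.21% lower in this comparison. Of the muscle genes 1 rose and 3 fell, and of the fibroblast genes 2 rose and 1 fell. The single muscle rise (6.25%) and the single fibroblast fall (7.69%) were near those shares. The sum of 13 keratinocyte genes lay between 142803 and 157793 on E16.5 arrays and between 186048 and 195523 on E18.5 arrays, and 2 of them rose. That of 11 adipocyte genes was 16430 to 19954 and 47286 to 62209, and 8 of them rose and 1 fell. All 13 keratinocyte and all 13 fibroblast genes were above background on every array. Erythroid genes moved too, with a sum of 5139 to 9858 on E16.5 arrays and of 1953 to 2710 on E18.5 arrays, and 4 of the 9 measured fell and 0 rose (median −0.57). Of these, Epb42 and Rhag were at background at both stages and Hbb-bh1 at E18.5. Of the adipocyte genes, Cidec and Lep were at background at E16.5 and Ucp1 at E18.5. The part of these lists in the members' differences was not tested.

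Scaling shifted the whole distribution. The median difference of all probesets from E16.5 to E18.5 was 0.12 as deposited, 0.00 under quantile normalization and −0.05 under median centring. Member probesets called lower numbered 7, 7 and 12 in that order and those called higher 1, 0 and 0. The share of calls that were higher, over all probesets, was 58.6% as deposited, even under quantile normalization (1600 higher and 1602 lower) and 29.9% under median centring.

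Other genes of the same pathways were taken with 1 probeset a gene, the one with the highest mean, for which 11.9% of 18193 genes were called between E16.5 and E18.5 (6.69% higher, 5.21% lower). Of 31 other let-7 targets 2 rose (6.45%, near the share of all genes) and 0 fell. Their median log2 difference was 0.06 against 0.12 for all genes, and under median centring 1 rose and 3 fell. Mycn, a growth-promoting transcription factor of the Myc family, went from 350 ± 79.9 to 1041 ± 97.7 (SD, n = 3 each), a 2.93-fold rise (log2 1.55 ± 0.21, limma adjusted p = 0.00208). Col1a2, a fibrillar collagen chain, was 1.27-fold higher (limma adjusted p = 0.0467). In 11 of its 17 alternatives the call was lost, and under quantile normalization the sign turned (−0.20). Lin28a, the paralogue of Lin28b, was at background at both stages. Ccnd2, which encodes a G1 cyclin (log2 0.38 ± 0.11, limma adjusted p = 0.0611), and Igf1r, the receptor of the insulin-like growth factors (0.06 ± 0.16, limma adjusted p = 0.844), were not called. Lower but not called either were Plagl2 (log2 −0.43 ± 0.14, limma adjusted p = 0.0727) and Igdcc4 (−0.50 ± 0.20, limma adjusted p = 0.138). Uncalled differences in this list thus lay in both directions. Lin28a, Ccnd2, Igf1r, Plagl2 and Igdcc4 were picked as examples after their values were seen.

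Genes that process microRNAs rose in 3 of 19 and fell in 1 (median 0.05). Drosha, the nuclear enzyme that cuts primary microRNA transcripts, went from 738 ± 153 to 2274 ± 41.6 (SD, n = 3 each), 3.08-fold higher (log2 1.62 ± 0.16, limma adjusted p = 0.000476). Ddx17, an RNA helicase that works with it, was 1.67-fold higher (limma adjusted p = 0.00221). The third rise was Ddx5, a related helicase (1.47-fold), and the fall was Tut7, a terminal uridylyl transferase that acts on let-7 precursors (log2 −0.47 ± 0.12, limma adjusted p = 0.0371). Dicer1, the cytoplasmic processing enzyme, had a log2 difference of 0.06 ± 0.12 (limma adjusted p = 0.792). Ddx5, Tut7 and Dicer1 were chosen after their values were seen.

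In the insulin-like growth factor pathway, binding protein genes moved in both directions. Of 19 genes 2 rose and 4 fell (median −0.03). Igfbp3, the main carrier of these factors in blood, went from 1196 ± 146 to 4064 ± 522 (SD, n = 3 each), 3.36-fold higher (log2 1.75 ± 0.14, limma adjusted p = 0.000179). Igfbp5, another binding protein, fell 2.24-fold from 6078 ± 912 to 2754 ± 774 (log2 −1.16 ± 0.19, limma adjusted p = 0.00446). Other falls were Igf2r, the receptor that clears Igf2 (log2 −0.79 ± 0.15), Igfbp2 (−0.69 ± 0.16) and Pappa2, a protease of the binding proteins (−1.02 ± 0.26). The other rise was Stc1 (0.80 ± 0.20), which encodes stanniocalcin. Igf1 had a log2 difference of −0.72 ± 0.33 (limma adjusted p = 0.190). Igf2r, Igfbp2, Pappa2, Stc1 and Igf1 were chosen after their values were seen.

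Of 33 other imprinted genes 1 rose and 4 fell, with a median of −0.19. Igf2r is in this list and in that of the insulin-like growth factor pathway, so its fall is counted in both. Igf1r and Irs2 likewise belong to the pathway list and to the other let-7 targets. Asb4 fell at least 3.14-fold, from 279 ± 38 to a background-level 57.3 ± 13.9 (SD, n = 3 each; log2 of the measured signals −2.02 ± 0.21, limma adjusted p = 0.000628). Ppp1r9a, which encodes an actin-binding protein, fell 1.79-fold (limma adjusted p = 0.0257), and 6 of its 17 alternatives gave no call. Under median centring 0 of the 33 rose and 8 fell. Proliferation genes fell in 2 of 31 (6.45%, near the 5.21% of all genes with 1 probeset each) and rose in 0 (median −0.10). These were Bub1, a mitotic checkpoint kinase (1.93-fold, limma adjusted p = 0.0412), and Ccne1, a cyclin of S phase entry (1.68-fold, limma adjusted p = 0.0228), and the calls were lost in 10 and 4 of their 17 alternatives.

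**Figure D3:**
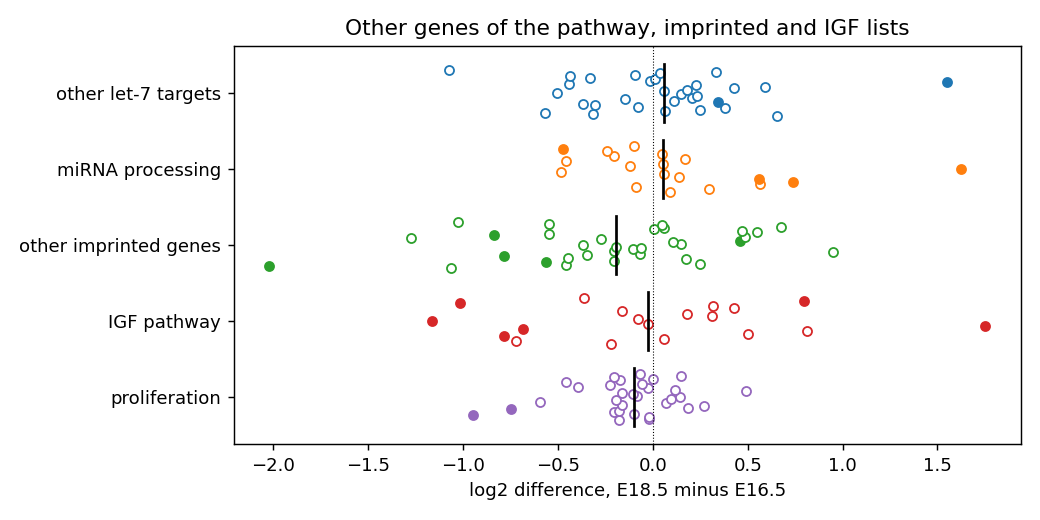
Log2 difference, E18.5 minus E16.5, for other genes of 5 lists (1 point a gene, its probeset with the highest mean; filled points were called by limma; the vertical bar is the list median). Medians lie between −0.19 and 0.06; the filled points furthest from 0 are Asb4 on the left and Igfbp3, Drosha and Mycn on the right.

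Between E14.5 and E16.5, 11 member probesets were higher, 9 were lower and 7 were not called. Of all probesets 57.6% were called in this comparison, 38.9% higher and 18.7% lower. Probesets of 1 gene often opposed each other. Where a member gene had several calls (7 genes), 6 had them in both directions, as did 50.1% of 5068 such genes in all, against 16.7% of 498 between E16.5 and E18.5. Igf2 was the 1 member gene without such a conflict. The direction of most member genes after E14.5 therefore depended on the probeset read.

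Hmga2 probeset 1422851_at had signals of 1647 and 1755 at E14.5, all above the E16.5 arrays, and was 2.64-fold lower at E16.5 (log2 −1.40 ± 0.23 SE, n = 2 and 3, limma adjusted p = 0.000339). Probeset 1450781_at, with 1086 and 843 at E14.5, was 2.11-fold lower (log2 −1.08 ± 0.19, limma adjusted p = 0.00046). Probeset 1450780_s_at, with 1489 and 1401, was not called (log2 −0.27 ± 0.17, limma adjusted p = 0.202), though it was under median centring (−1.12). Against these, 1446196_at had background-level signals of 6.05 and 22.0 at E14.5 and was at least 1.86-fold higher at E16.5 (limma adjusted p = 0.00057). From E14.5 to E18.5, which uses the same E14.5 and E18.5 arrays, the 3 probesets above background were 4.74, 4.45 and 3.07-fold lower for 1422851_at, 1450781_at and 1450780_s_at (limma adjusted p = 1.03e-05, 2.89e-06 and 1.39e-05).

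Igf2bp1 probeset 1455223_at had 1152 and 1238 at E14.5 and was 1.74-fold lower at E16.5 (limma adjusted p = 0.00618), while 1418761_at had 157 and 106 and was 3.25-fold higher (limma adjusted p = 5.45e-05). Igf2bp3 probesets 1433731_at (2672 and 2924 at E14.5) and 1433732_x_at (3103 and 3003) were 3.76 and 3.13-fold lower at E16.5. Its probesets 1422610_s_at (1122 and 946 at E14.5), 1422611_s_at (660 and 665) and 1450687_at (197 and 288) were 1.79, 2.17 and 1.55-fold higher. Under median centring 1422610_s_at and 1450687_at had the opposite sign (−0.010 and −0.22), and 1450687_at under quantile normalization too (−0.15). The rise of 1422611_s_at lost its call under median centring (0.27, limma adjusted p = 0.197), so none of the 3 rises held there. The call of 1450687_at was also lost without E14.5 replicate 1 (0.38) or without any 1 of the E16.5 arrays (0.58 to 0.67).

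Igf2 was higher at E16.5 than at E14.5 by both probesets. Probeset 1448152_at gave 12230 and 10695 at E14.5 and was 1.49-fold higher (log2 0.58 ± 0.12 SE, n = 3 and 2, limma adjusted p = 0.00141), and 1415931_at gave 26.5 and 56.4 and was at least 18.4-fold higher (log2 of the measured signals 4.45 ± 0.60, limma adjusted p = 7.26e-05). Under median centring the difference of 1448152_at was −0.27. Dlk1 probeset 1449939_s_at gave 7176 and 7551 at E14.5 and was 2.67-fold higher (limma adjusted p = 1.46e-05), whereas 1442724_at gave 1936 and 1783 and was 3.61-fold lower (limma adjusted p = 0.000325).

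Peg3 and Plagl1 held the widest contrasts between probesets of 1 gene. Peg3 probeset 1417355_at gave 533 and 409 at E14.5 and was 20.0-fold higher at E16.5 (log2 4.32 ± 0.48 SE, n = 3 and 2, limma adjusted p = 1.84e-05), and 1417356_at gave 624 and 655 and was 8.04-fold higher. Probeset 1433924_at gave 18875 and 17896 and was 1.61-fold lower (log2 −0.69, limma adjusted p = 0.0223). This call was lost in 6 of its 17 alternatives: quantile normalization (−0.38, adjusted p = 0.166), no variance trend (adjusted p = 0.0656), either E14.5 array left out (adjusted p = 0.0789 and 0.112), and E16.5 replicate 2 or 3 left out (adjusted p = 0.0556 and 0.0519). Plagl1 probeset 1438588_at gave 3641 and 2615 at E14.5 and was 32.0-fold lower (log2 −5.0 ± 0.24, limma adjusted p = 6.02e-08), 1450533_a_at gave 396 and 400 and was 3.11-fold higher (log2 1.63, limma adjusted p = 0.00297), and 1426208_x_at gave 17668 and 17310 and was not called (limma adjusted p = 0.425). The rise of 1450533_a_at was not called under quantile normalization (1.09, adjusted p = 0.0509) or median centring (0.79, adjusted p = 0.0598), and under the latter 1426208_x_at was called lower (−1.03). The summed muscle signal was 18106 and 31492 at E14.5, below the 100631 to 110208 at E16.5. Of the 16 muscle genes 12 were called higher and 2 lower there, where 37.1% and 20.8% of all genes with 1 probeset each were (57.9% called). Muscle was not alone in this. Of 10 endothelial genes 9 were higher and 1 lower, of 13 keratinocyte genes 9 and 4, and of 9 erythroid genes 1 and 4. The part of these lists in the differences of the members was not tested. The call of Peg3 1447732_x_at, lower at E16.5, again rests on signals at background.

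**Figure D4:**
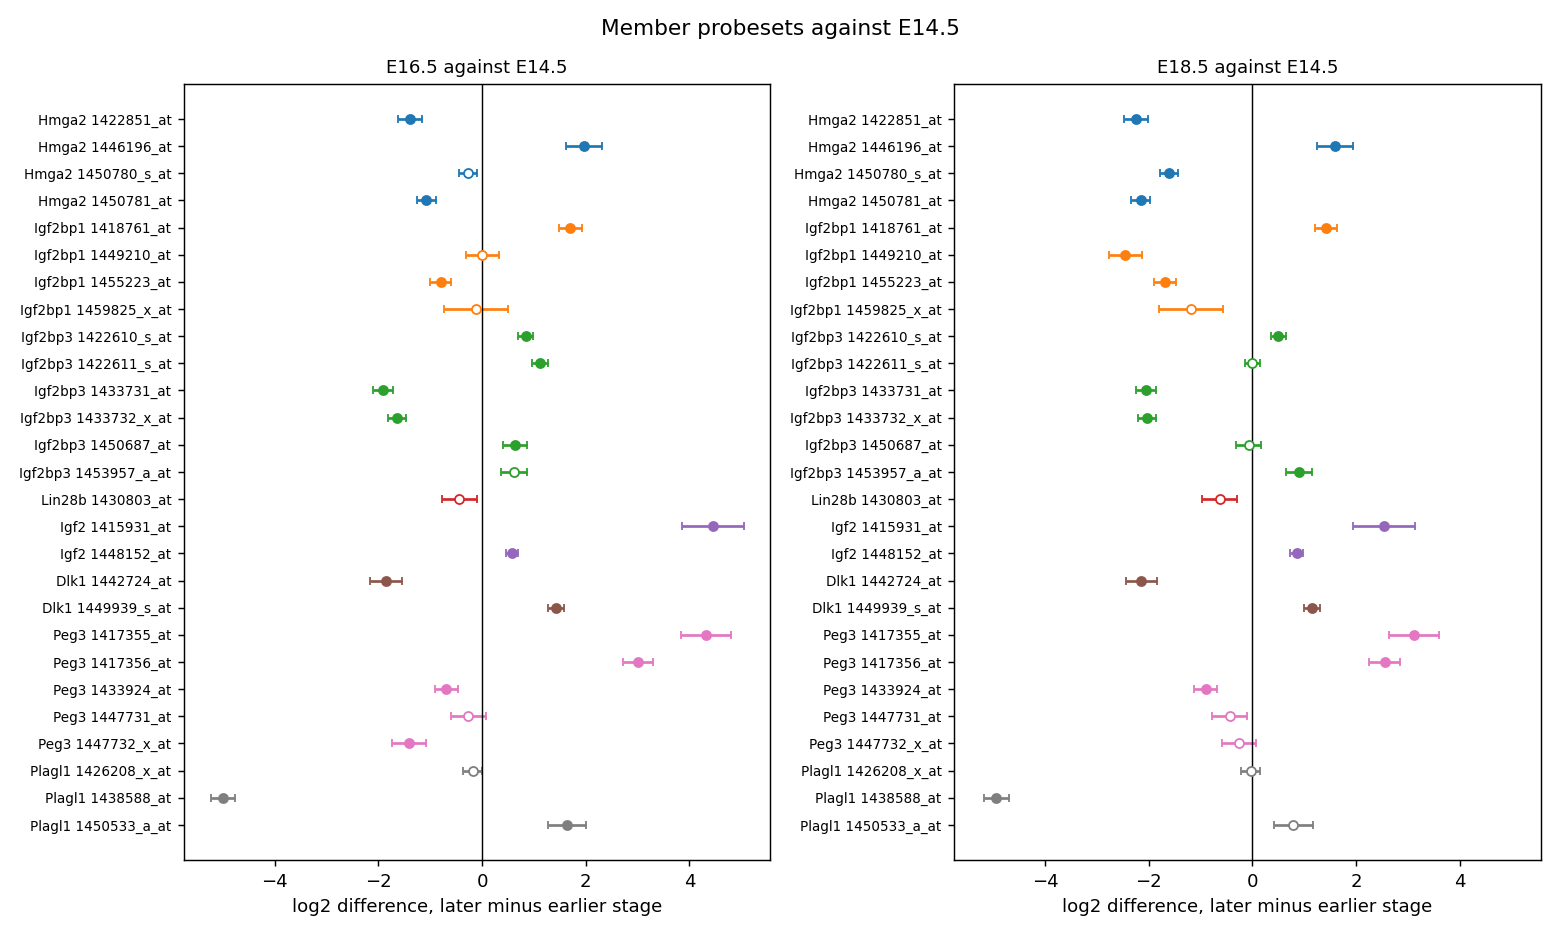
Log2 difference of each of the 27 member probesets at E16.5 (left) and E18.5 (right) from E14.5, on the log2(signal + 16) scale, with SE bars; filled points were called by limma and colours mark genes. Both sides share the E14.5 arrays. Filled points of Hmga2, Igf2bp1, Igf2bp3, Dlk1 and Peg3 lie on both sides of 0, and that of Plagl1 1438588_at is the lowest, at −5.0 and −4.94.

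From E14.5 to E18.5, 9 member probesets were higher, 10 lower and 8 not called, where 42.9% of all probesets were higher and 16.9% lower (59.8% called). The split by scaling was wide in both comparisons with E14.5. Under median centring 6 members were higher and 14 lower at E16.5, and 3 higher and 18 lower at E18.5. Under quantile normalization the numbers were 9 and 9 at E16.5, and 7 and 15 at E18.5. The median of all probesets against E14.5 was 0.38 at E16.5 and 0.59 at E18.5 as deposited, 0.01 and 0.03 under quantile normalization, and −0.47 and −0.43 under median centring. The falls of Hmga2 1422851_at, 1450780_s_at and 1450781_at from E14.5 to E18.5 were called under all 3 scalings, with log2 differences from −1.50 to −3.27 over all alternatives.

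The genes whose course over the 8 arrays was most like that of Hmga2 (probeset 1450780_s_at) were Zmiz1, Smg1, Myl3, Gon4l and Septin11, with Pearson r from 0.980 to 0.988 among 24427 candidate probesets, of which 0.847% exceeded 0.9. Zmiz1 had signals of 3757 and 3733 on the E14.5 arrays, between 3511 and 3725 on those of E16.5, and between 2766 and 2924 on those of E18.5. The likeness is to this 1 Hmga2 probeset, which was not called from E14.5 to E16.5 (log2 −0.27). Hmga2 probesets 1422851_at and 1450781_at fell there (−1.40 and −1.08). For Dlk1 (probeset 1449939_s_at) they were Col1a2 (through another of its probesets), Marchf7, Sc5d, Ssh1 and Mybph, with r from 0.995 to 0.998, but 24.2% of candidates exceeded 0.9 there. Over the 6 arrays of E16.5 and E18.5 alone, r was 0.979 to 0.995 for the genes likest Hmga2 and 0.954 to 0.995 for those likest Dlk1. The points share their stages and the scaling of the arrays, so these are descriptions.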

How the data were processed

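Affymetrix Mouse Genome 430 2.0 signals of 8 arrays were analysed. The deposited values are linear probeset intensities. Affymetrix Expression Console 1.1 and PLIER 2.0 are named, per the submitters' processing notes; the sources used here do not give the background correction or normalization. Per the labels' protocols, targets were made with a whole-transcript kit, although the array is a 3′ expression array. Of 45101 probesets, 34958 carried 1 symbol, 932 several and 9211 none; without the 64 control probesets, 34945 single-symbol ones were tested. Signals were taken as log2(signal + 16) and fitted with 1 mean per stage over all arrays by limma 3.58.1 (R 4.3.3, lmFit, eBayes with trend). Where an array of the dimmer stage was at background, the fold is a lower bound against that background. All member probesets were named; of each other list, the 2 called probesets with the largest difference, and the 5 likest genes. The fit was tested on simulated data for E18.5 against E16.5, with 200 changed probesets of 34945. It recovered 20.4% of changes of log2 1 and 60.8% of changes of log2 2, with 3 false calls in each setting. These rates apply to 200 changed probesets. In the deposited data 3742 probesets were called for E18.5 against E16.5, and recovery with that many changed was not tested. A probeset that was not called may still have changed. The members, lists and tests were chosen with earlier results of these data known. Replicate numbers follow accession order. The number of arrays limits the precision. Tried as well were other pseudocounts (1 and 64), median centring, quantile normalization, a filter on dim probesets, no variance trend, array weights, 1 probeset or the mean of probesets a gene, only the stages compared, and each array left out. Sequences came from RefSeq tables (GRCm38.p6).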

Additional observations from a re-analysis of the deposited data

How the results depend on the processing

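Of 1481 single-probeset values recomputed, 1330 kept their direction and side of the threshold, 76 lost a call, 37 gained one, 12 changed sign with a call before or after and 26 changed sign uncalled. The cause was not tested, except that fits with 1 row a gene test fewer rows. With the highest-mean probeset of each gene, 2, 5 and 6 of 8 member genes were called for E18.5 against E16.5, E16.5 against E14.5 and E18.5 against E14.5 (all genes 2340, 10526 and 11129); with the mean of all probesets of each gene, 2, 3 and 6 (all genes 1751, 9599 and 10330). Without a variance trend 2435 probesets in all were called for E18.5 against E16.5, in place of 3742. Leaving out 1 array gave 1208 to 4120 probesets and 4 to 13 member probesets there (1662, 1563 and 1208 probesets without E16.5 replicate 1, 2 and 3), 18077 to 20738 and 18 to 20 for E16.5 against E14.5, and 18804 to 20609 and 18 to 20 for E18.5 against E14.5. Signs turned under quantile normalization for Igf2bp1 1449210_at (−0.86) and Igf2bp3 1450687_at (−0.15) at E16.5 against E14.5, Igf2bp3 1422611_s_at (−0.42) at E18.5 against E14.5 and Col1a2 (−0.20) at E18.5 against E16.5. Under median centring they turned at E16.5 against E14.5 for Igf2bp1 1449210_at (−0.84), Igf2bp3 1422610_s_at (−0.010) and 1450687_at (−0.22) and Igf2 1448152_at (−0.27), and at E18.5 against E14.5 for Igf2bp3 1422610_s_at (−0.52), 1422611_s_at (−1.02) and 1453957_a_at (−0.13) and Igf2 1448152_at (−0.17). No paired analysis was possible because the labels give no replicate numbers that link arrays of different stages. Signals at background on at least 1 array limit 7 member probesets: Lin28b 1430803_at, Peg3 1447731_at and 1447732_x_at, Hmga2 1446196_at, Igf2bp1 1449210_at and 1459825_x_at, and Igf2 1415931_at.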

Other observations

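The imprinted gene Asb4 was called lower in each comparison of stages. Its signals were 1306 ± 116 (SD, n = 2) on the E14.5 arrays, 279 ± 38 (n = 3) on those of E16.5 and 57.3 ± 13.9 (n = 3) on those of E18.5, the last at background. Cdkn1c, an imprinted inhibitor of cell division chosen after its values were seen, gave 3459 ± 295, 15188 ± 769.9 and 10348 ± 1619 in that order; the change from E16.5 to E18.5 was −0.56 ± 0.13 (log2, SE; limma adjusted p = 0.0189). Drosha gave 2508 ± 369.9, 738 ± 153 and 2274 ± 41.6, lowest at the middle stage. Values at E14.5 carry the same limit of array preparation as those of the members.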
